A study of Pimephales promelas with 10 samples.

Results

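Contigs that share an assembly cluster were examined on a fathead minnow (Pimephales promelas) microarray hybridised with RNA from testis explants. A contig is a stretch of transcript sequence put together from overlapping cDNA reads. Members were probes whose names have the form FJU.number.Cn, read here as contig n of cluster number, with names ending in _ms left out. Clusters with 3 or more contigs on the array were ranked by their number of contigs and taken in full until 300 probes were reached. This gave 302 probes in 65 clusters, of 10798 probes in 9211 clusters named in this form and 15208 probes on the array. Each member contig had 1 probe. The last cluster taken, FJU.908, and the first not taken, FJU.997, both had 3 contigs, so the cluster number alone parted them, and 17 of the 131 clusters with 3 contigs were included. Of the names ending in _ms, 19 belonged to the 65 clusters and were not used here.

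The explants, pieces of testis kept in culture, were incubated for 12 h with progesterone at 1e-06 M (4 samples, numbered 4, 5, 7 and 8 in their titles) or as controls (6 samples, numbered 2, 4, 5, 7, 8 and 10). Every sample had 1 Agilent array of its own, in the single dye Cy3. By their barcodes, slide 1 held progesterone 5 and 8 and control 8, and slide 2 held control 10 and no other sample of the series. Slide 3 held progesterone 4 and 7 and controls 2 and 7, and slide 4 held controls 4 and 5. Controls 4, 5 and 10 thus shared no slide with a progesterone sample. All tissue was male gonad of one species, and the labels give neither the strain or age of the fish, nor what the controls were incubated with, nor whether the samples came from separate fish. The p-values therefore measure the spread between these samples, which may be partly technical. The probes carry no gene names, so the tissue could not be checked against marker genes, and no pathway could be named.

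In a cDNA assembly, reads that resemble each other are first grouped into a cluster, and the cluster is then resolved into contigs. The contigs of a cluster can be splice variants or alleles of a gene, transcripts of closely related genes, or separate pieces of a single long transcript. A testis transcriptome is known for many alternative transcripts, made above all in the germ cells. Progesterone, the hormone added here, is a precursor of androgens in the testis and acts through nuclear and membrane receptors.

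Signals are log2 values of the processed spot intensity minus the 75th percentile of the same array, so that 0 is the 75th percentile. Array 75th percentiles ranged from 1382 to 3927 intensity units, and on single arrays 82.6% to 95.2% of all probes were well above background. No member spot was saturated. On all 10 arrays, 248 of the 302 members (82.1%) were well above background, against 78.5% of all probes, and 47 were so on some arrays and 7 on none. Probes well above background on at least 4 arrays were kept, which left 288 of the 302 members (95.4%) and 14096 of all probes (92.7%). The 14 contigs that were not kept lay in 11 clusters, among them FJU.9223 with 3 and FJU.8938 with 2.

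Contigs of one cluster gave widely different signals. The median distance between the dimmest and the brightest kept contig of a cluster was 6.65 on the log2 scale, or 100.3-fold, and it exceeded 10-fold in 54 and 100-fold in 33 of the 65 clusters. The kept members ran from -7.71 to 7.32 with a median of -2.60, close to the median of -2.66 of all probes kept. In 19 clusters the contigs reached both the lowest and the highest quartile of all probes on the array. Probes differ in how well they bind their target, so the difference between 2 probes mixes binding with transcript level, and no contig is called more abundant than another here.

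Only a small share of the spread in signal lay between clusters. Across the 288 kept members the intraclass correlation attributed 15.4% of the variance to the cluster, with 12.5% to 18.9% on single arrays (SD over 10 arrays 1.84). The median SD within a cluster was 2.97, against 3.63 over all kept members. Among the members well above background on all arrays the share was 9.66%. In all 1191 clusters of the array with 2 or more kept contigs (2640 probes) it was 1.04%. Knowing the cluster thus told little about the signal of a contig in either set.

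The largest clusters show this in detail. FJU.1387 had 14 contigs, all kept, whose mean signals ran from -7.27 (C10) to 3.15 (C26), and 4 of them lay in the lowest and 6 in the highest quartile of the array. FJU.610 had 11 contigs, of which 10 were kept, from -5.98 (C19) to 6.77 (C4). Its contig C20 was well above background on 3 arrays only. The ranges of FJU.1387 and FJU.610, 10.42 and 12.75 on the log2 scale, exceeded the median of 6.65.

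FJU.487 and FJU.582, with 9 contigs each, ran from -6.57 to -0.54 and from -5.13 to 3.12. FJU.533 and FJU.728, with 8 contigs each, ran from -4.01 to 1.38 over 7 kept contigs and from -6.40 to 4.07 over 8. The widest cluster was FJU.697, with 4 contigs between -7.54 (C12) and 7.11 (C5). At the other end, the 4 contigs of FJU.5864 lay within 0.51 of each other, between -0.59 and -0.08. A like signal was therefore seen, but in few clusters.

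**Figure D1:**
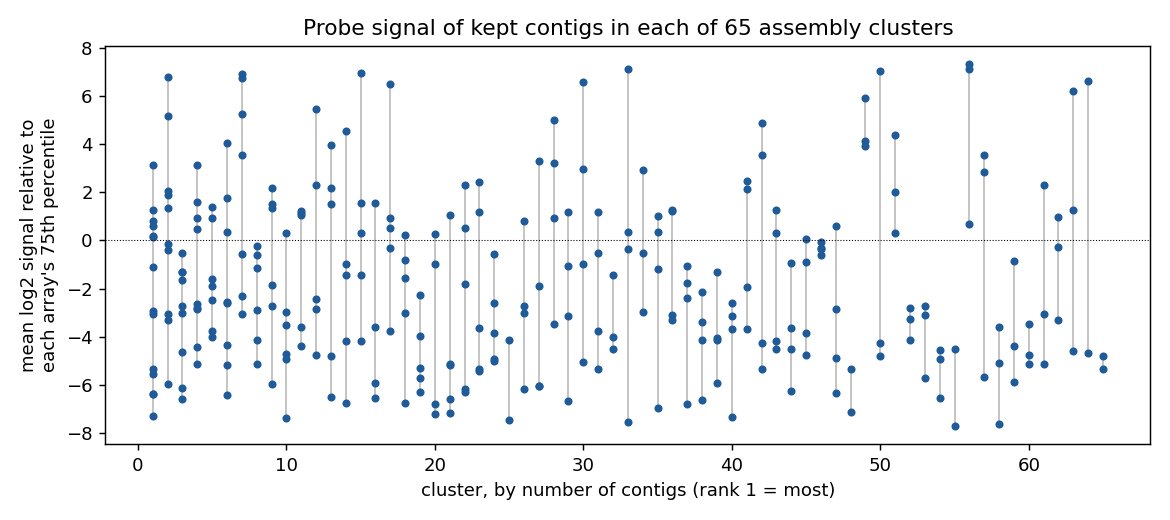
Mean log2 signal over the 10 arrays, relative to each array's 75th percentile, of the 288 kept contigs (points), by cluster in the order of the number of contigs; grey lines join the dimmest and brightest contig of a cluster. The median cluster spans 6.65 within the range of -7.71 to 7.32, and a few, such as FJU.5864 at rank 46, are compact.

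Names of 81 members carry the letters rc in the part that follows the contig number, which the files do not explain. In the 42 clusters with kept contigs of both kinds, the median signal of the rc contigs was the lower in 31, with a median difference (rc minus other) of -1.73. Over the kept members the medians were -3.39 for 80 rc contigs and -1.43 for the other 208, while over all probes kept they were -2.85 and -2.60. The contig number itself showed no relation to signal across the 288 members (Spearman rho -0.029, across probes, which are not independent). The rc contigs were therefore dimmer within most clusters, by an amount whose source was not tested.

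Covariation was then measured, to see whether contigs of one cluster move together from sample to sample. For each pair of kept contigs, Pearson's correlation was taken over the 10 arrays after the mean of each group had been removed, so that treatment does not enter. The 628 pairs within clusters had a median correlation of 0.097 (quartiles -0.23 and 0.40). The 40700 pairs of members from different clusters, all of which were enumerated in place of a random or matched sample, had a median of 0.022 (quartiles -0.29 and 0.33). A correlation above 0 was found in 59.2% of pairs within clusters and in 51.9% of the others.

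The quartiles and the median were each slightly higher within clusters. At the extremes, 27 pairs within clusters (4.30%) exceeded 0.8, against 739 (1.82%) between clusters, whereas correlations below -0.8 made up 0.955% and 0.946%. Pairs share arrays, and each contig enters several pairs, so these shares are descriptions with no test. The 65 clusters had a median correlation above 0 in 46 cases and above 0.5 in 6, and in 15 clusters every pair was above 0. FJU.504 and FJU.858 hold 1 pair each (0.73 and 0.83) and enter all of these counts. FJU.9223 and FJU.8938, also with 1 pair each, are among the 46 and the 15. Most others of the 15 have only 3 pairs. Of the pairs between clusters 51.9% were above 0, and no like count by cluster was made from them.

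**Figure D2:**
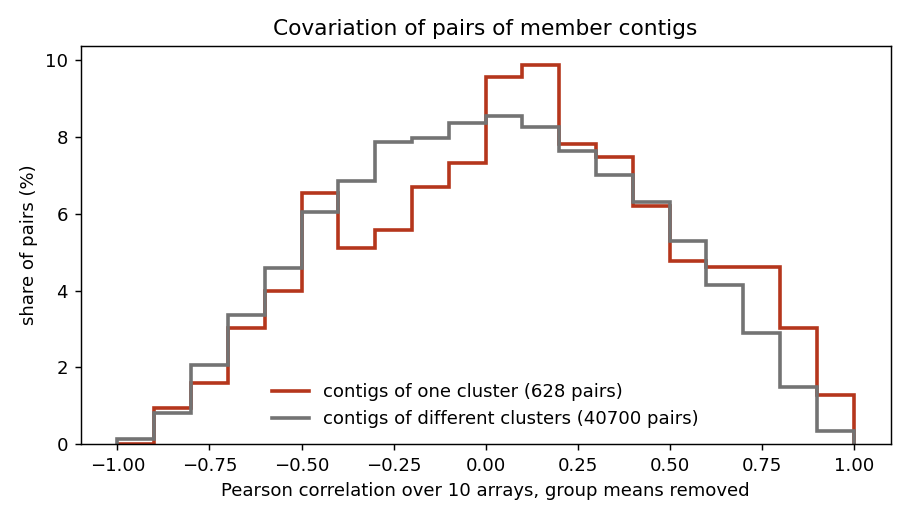
Share of pairs of kept member contigs (%) by Pearson correlation over 10 arrays after removal of group means, for 628 pairs within clusters (red) and 40700 pairs between clusters (grey). The distributions largely coincide, with medians of 0.097 and 0.022.

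The small excess was found in each range of signal. With the dimmer probe of the pair in the lowest, middle and highest tertile of member signals, the medians within clusters were 0.100, 0.094 and 0.061, and those between clusters were 0.042, 0.0016 and -0.014. Pairs with signals within 1 log2 unit of each other had 0.170 within (105 pairs) and 0.061 between clusters. Pairs 4 or more units apart had 0.079 (271 pairs) and 0.0055. Contigs of like signal thus covaried slightly more, in both kinds of pair.

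The pairs were also divided by the distance between their spots on the array. Pairs nearer than the median spot distance had a median of 0.093 within clusters and 0.020 between them, and pairs at or beyond it had 0.101 and 0.023. The few pairs within 10 positions of each other had 0.159 within clusters (13 pairs) and -0.014 between them (773 pairs), and 23.1% and 0.776% of them exceeded 0.8. Pairs in which both names carried rc stood highest, with 0.308 within clusters (49 pairs) and 0.044 between them, and 14.3% and 1.51% of them exceeded 0.8. Pairs with no rc name had 0.108 and 0.025, and those with a single rc name had 0.058 and 0.015. Above 0.8 lay 3.43% and 2.0% of pairs with no rc name, and 3.49% and 1.59% of those with a single one.

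Median correlations were higher in the smaller clusters of the array. Pairs between clusters were enumerated for members only, so the other sets have no such value beside them. Among clusters with 2 contigs, the median correlation over 1015 pairs was 0.284 and 70.8% were above 0. Clusters with 3 or more contigs that are not members gave 0.144 over 311 pairs. Above 0.8 lay 10.0% of the pairs of clusters with 2 contigs, 6.75% of the pairs of larger clusters that are not members and 4.30% of member pairs. These are counts over pairs that share the same 10 arrays, and the difference between cluster sizes was not tested.

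Of the 1954 pairs within any cluster of the array, 96 (4.91%) passed an adjusted p of 0.05 in a permutation test over the arrays (100000 permutations, two-sided, Benjamini-Hochberg over the 1954). Among the 628 member pairs 20 passed (3.18%), 18 with positive and 2 with negative correlation, a share below that of all 1954 pairs. The test was not run on pairs from different clusters, so a pass does not tie a correlation to the shared cluster. Of the member pairs between clusters 1.82% lay above 0.8 and 0.946% below -0.8, against 4.30% and 0.955% within clusters. By Spearman's rho 8 member pairs passed, 7 of them among the 20. The 10 arrays carry 6 title numbers, and same-numbered samples deviated together, so the arrays are not fully independent and these p-values are too small. For that reason the correlation over the means of the 6 numbers is given as well for the pairs described here. It rests on 6 points, of which numbers 2 and 10 are single arrays, and has no p-value. It describes the pairs and does not correct these p-values, and a larger size there is no added support.

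The closest pair was C3 and C4 of FJU.718, both of which were well above background on all arrays. C3 had -4.84, -5.06, -5.55 and -5.09 with progesterone (numbers 4, 5, 7 and 8), against -4.79, -5.03, -4.90, -5.43, -5.65 and -1.32 in controls (2, 4, 5, 7, 8 and 10). C4 had -5.39, -5.47, -5.68 and -5.42 with progesterone, against -5.00, -5.30, -5.28, -6.06, -6.04 and -1.80 in controls. Both were far brighter in control 10 than in any other sample.

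Their correlation was r = 0.992 (permutation p = 1e-05, the smallest possible, adjusted p = 0.0028) and rho = 0.964 (adjusted permutation p = 0.012). Over the 6 numbers r was 0.999, and without the 2 arrays farthest from the median of C4 it was 0.952. The third contig, C2, had -3.17 in control 10, within its range of -4.48 to -2.55 over the other samples. The high signal in control 10 was thus seen in both rc contigs of the cluster and not in C2. Control 10 was the only sample of the series on its slide, so the sample and its slide cannot be told apart.

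In FJU.511, a cluster with some of the brightest members, C1 and C3 ran together and C6 apart from them. C1 had 7.25, 6.93, 7.005 and 6.79 with progesterone, against 7.33, 7.27, 7.94, 7.29, 6.39 and 6.82 in controls in the order of numbers. C3 had 7.51, 7.19, 7.22 and 6.93 with progesterone, against 7.54, 7.60, 7.98, 7.39, 6.81 and 7.05 in controls. The pair was highest in control 5 and lowest in control 8. This course was not particular to FJU.511: of the 12 members with a mean signal above 6, from 10 clusters, 12 were highest in control 5 and 9 lowest in control 8. Among pairs whose dimmer contig was in the highest tertile, the highest correlation between different clusters was 0.983, above that of C1 and C3.

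C1 and C3 gave r = 0.973 (adjusted permutation p = 0.0053) and rho = 0.939 (adjusted permutation p = 0.029), with 0.986 over the 6 numbers and 0.952 without the 2 farthest arrays. C6 had 0.17, 0.83, 1.60 and 0.68 with progesterone, against 0.40, 0.35, -0.23, 1.52, 0.69 and 0.72 in controls. It was lowest where C1 and C3 were highest, and this made the median of the 3 pairs -0.410, the lowest among the 60 clusters with 3 or more kept contigs. The next lowest medians were -0.389 in FJU.942 and -0.320 in FJU.71.

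The highest median in those 60 clusters was 0.784 in FJU.3562, whose 4 contigs gave 6 pairs between 0.643 and 0.930. C3 had -1.71, -1.04, -1.75 and -1.98 with progesterone, against -3.94, -1.44, -0.71, -2.31, -2.28 and -2.31 in controls. C4 had -3.55, -3.09, -3.61 and -3.96 with progesterone, against -4.71, -3.15, -2.22, -3.90, -4.22 and -4.16 in controls. All contigs of the cluster were lowest in control 2, and C3 and C4 were highest in control 5.

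For C3 and C4 of FJU.3562 r was 0.930 (adjusted permutation p = 0.0088), rho was 0.842 (adjusted permutation p = 0.104), and r was 0.925 over the 6 numbers and 0.912 without the 2 farthest arrays. C1 and C2 of the same cluster gave r = 0.869 (adjusted permutation p = 0.036) and rho = 0.746 (adjusted permutation p = 0.193), with r = 0.912 over the 6 numbers and 0.615 without the 2 farthest arrays. FJU.2055 and FJU.3434 followed with medians of 0.661 and 0.530. Signals within FJU.3562 still differed 69.4-fold, so in this cluster a common course over samples did not go with a like probe signal.

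**Figure D3:**
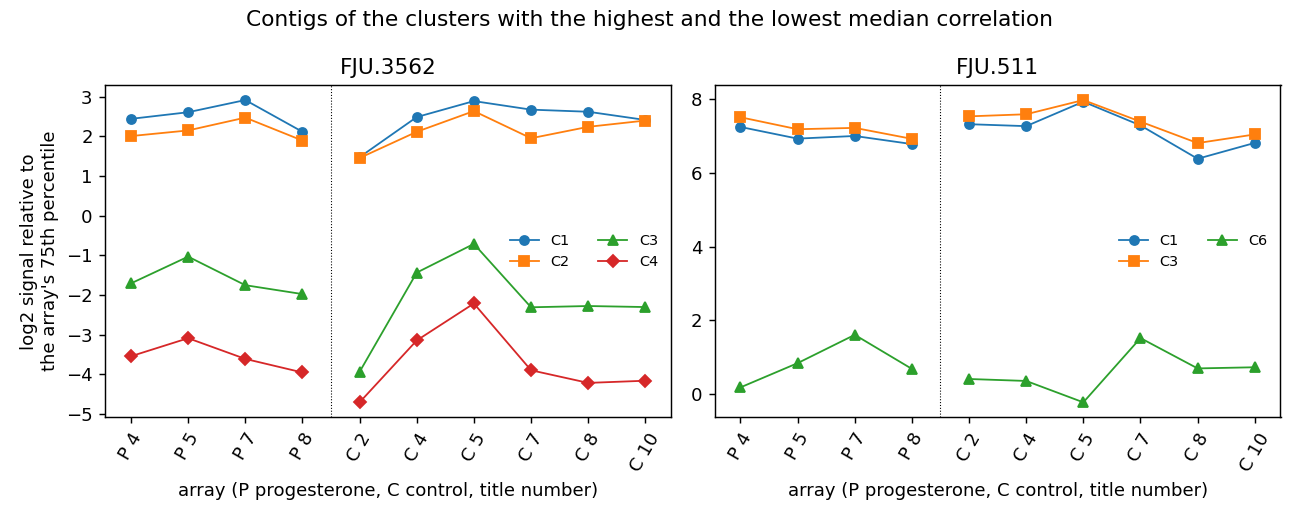
Log2 signal relative to the array's 75th percentile on each array (P progesterone, C control, with the title number; lines only join the points of a contig) for FJU.3562 and FJU.511, the clusters with the highest and lowest median correlation among those with 3 or more kept contigs. In FJU.3562 all 4 contigs dip in control 2, and in FJU.511 C1 and C3 run together while C6 is lowest in control 5.

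Close pairs were also found in clusters with a lower median. Both names carry rc in the pairs given here from FJU.459 and FJU.2069, as in C3 and C4 of FJU.718 and of FJU.3562. In the pair from FJU.33 only C10 does, and in C1 and C3 of FJU.511 neither does. In FJU.459, where the 3 pairs had a median of 0.503 and all were above 0, C3 and C4 gave r = 0.966 (permutation p = 1e-05, the smallest possible, adjusted p = 0.0028) and rho = 0.964 (adjusted permutation p = 0.020), with 0.976 over the 6 numbers and 0.972 without the 2 farthest arrays. Their spots are diagonal neighbours, 1.41 positions apart, and the part of this in the result was not tested. They are one of the 3 pairs within 10 positions and within a cluster that exceeded 0.8. C4 and C5 of FJU.2069, a cluster with a median of 0.063, gave r = 0.957 (adjusted permutation p = 0.0060) and 0.999 over the 6 numbers. C1 and C10 of FJU.33, a cluster with a median of 0.228, gave r = 0.947 (adjusted permutation p = 0.0078) and 0.959 over the 6 numbers. The spots of these pairs were 71.9 and 54.8 positions apart. FJU.33.C1 was well above background on 4 of 4 progesterone and 4 of 6 control arrays. FJU.459.C4 was so on 3 of 4 and 5 of 6, so part of the range of both contigs lies near background.

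Correlations below -0.8 were about as frequent between clusters (0.946%) as within them (0.955%), so negative pairs are not particular to clusters. The negative pair with the smallest adjusted p was C10 and C25 of FJU.1387, with r = -0.872 (adjusted permutation p = 0.032) and rho = -0.903 (adjusted permutation p = 0.048). Its r was -0.891 over the 6 numbers and -0.844 without the 2 farthest arrays. C10 was well above background on 2 of 4 progesterone and 3 of 6 control arrays, so part of its range lies near background. C1 and C3 of FJU.3136 gave r = -0.844 (adjusted permutation p = 0.049) and rho = -0.794 (adjusted permutation p = 0.147), with -0.922 over the 6 numbers and -0.652 without the 2 farthest arrays. FJU.3136.C1 was well above background on 4 of 4 progesterone and 4 of 6 control arrays. The lowest correlation within a cluster, -0.891 between C23 and C35 of FJU.1387, did not pass (adjusted permutation p = 0.055) and was -0.944 over the 6 numbers and -0.377 without the 2 farthest arrays.

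Samples of one title number were compared next, on the 8 arrays whose number occurs in both groups. With the mean of each group removed, samples that share a number correlated between 0.312 and 0.574 over all kept probes, and between 0.382 and 0.605 over the kept members. Among the 8 arrays, pairs of different number reached at most -0.036 over all probes and 0.030 over the members (progesterone 7 and control 5). With controls 2 and 10 included they reached 0.217 and 0.353, both between progesterone 7 and control 10. Deviations from a group mean cancel over the samples of the group for each probe. Positive values for shared numbers therefore push the others down, and the low values are no separate result. A moderated F test of the number, with treatment as a covariate, was fitted with limma over all 14096 kept probes. It called 405 probes (2.87%) at an adjusted p under 0.05, and 10 of the 288 members (3.47%), a share near that of the array. At an unadjusted p under 0.05 there were 58 members (20.1%), against 2499 probes (17.7%) of the array.

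FJU.3953.C1 had the smallest p among the members. It had -5.85, -5.13, -5.12 and -0.089 with progesterone (numbers 4, 5, 7 and 8), against -5.26, -5.75, -6.29, -4.40, -0.0081 and -0.57 in controls (2, 4, 5, 7, 8 and 10). Both number 8 samples and control 10 thus formed a bright set, and the other 7 samples a dim one, with all 10 spots well above background. The adjusted limma p was 0.00486, and the number means spanned 53.8-fold.

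Progesterone 5, on the same slide as both number 8 samples, lay in the dim set. Control 10 was the only sample of the series on its slide. The part of the slide in this split was not tested. The 4 other contigs of FJU.3953 did not share the split: C3, for example, had -2.87, -2.37, -2.53 and -2.89 with progesterone, against -3.65, -2.54, -1.82, -1.66, -3.18 and -2.39 in controls. The bright state of C1 was therefore not seen in the rest of its cluster.

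FJU.1958.C7 split the samples in another way. It had -9.27, -5.71, 1.01 and -5.84 with progesterone, against -9.43, -8.83, -4.83, -1.03, -7.81 and -1.18 in controls. It was bright in both number 7 samples and in control 10, and it was well above background on only 3 of 4 progesterone and 3 of 6 control arrays, so no fold is given. The adjusted limma p for the number was 0.0085. On the slide that held both number 7 samples, progesterone 4 and control 2 were at the dim end, and the part of the slide was again not tested.

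FJU.695.C4 was dimmer in number 4 than in numbers 5, 7 and 8, and also dim in control 2 and control 10, which the test does not hold, with -6.33, -2.97, -2.96 and -3.19 with progesterone, against -6.72, -6.29, -3.67, -3.02, -3.40 and -5.46 in controls (limma adjusted p = 0.0090). FJU.541.C8 was dim in number 7 and in control 10, with 0.49, -0.68, -4.60 and -0.71 with progesterone, against -1.09, -1.43, -0.63, -4.18, -2.10 and -3.79 in controls (limma adjusted p = 0.049). FJU.7.C22 ran from bright in number 4 to dim in number 5, with -1.53, -5.04, -3.94 and -2.01 with progesterone, against -4.29, -1.01, -5.73, -3.32, -2.42 and -0.92 in controls (limma adjusted p = 0.0145). In all 3 the spots were well above background on all 10 arrays. The number means spanned 10.0-fold, 15.1-fold and 17.4-fold in the order given.

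The other 5 members that passed had adjusted limma p-values between 0.0092 (FJU.504.C2) and 0.043 (FJU.669.C5). FJU.669.C5, measured above background in every sample, had -1.35, 0.47, 0.54 and -1.42 with progesterone, against -0.0077, -1.66, 0.026, 0.35, -1.14 and -0.97 in controls, so numbers 5 and 7 lay above numbers 4 and 8. FJU.504.C2 and FJU.3136.C4 were each well above background on 5 arrays, and FJU.33.C1 on 8. FJU.33.C1 and FJU.33.C10 were the only members that passed within one cluster, and both were brightest in number 7 and dimmest in number 5 among the 4 numbers. They are the pair with r = 0.947 given above.

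**Figure D4:**
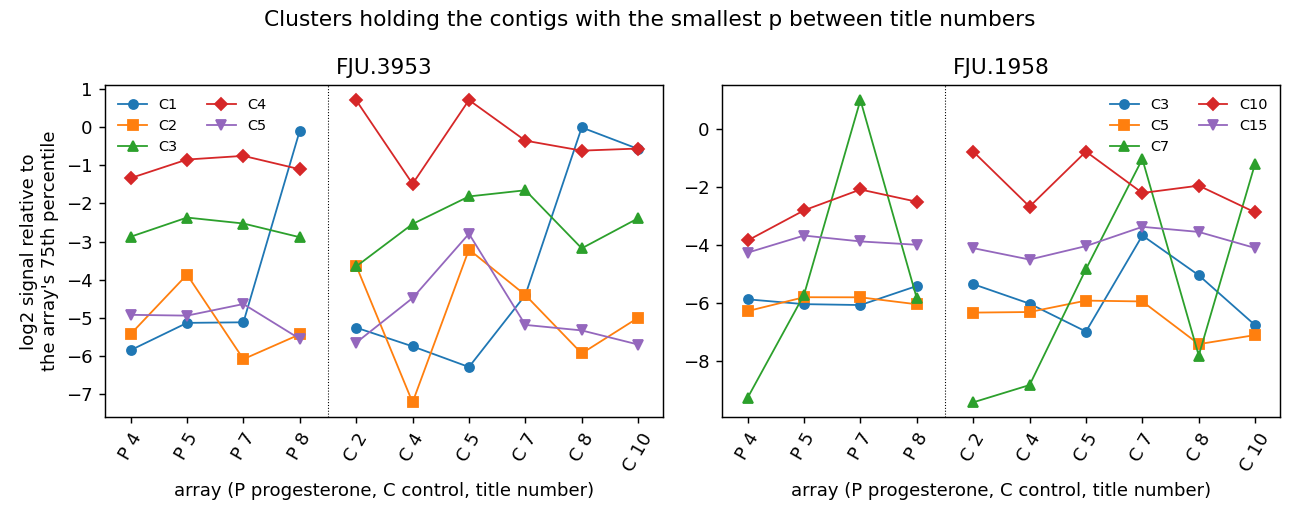
Log2 signal relative to the array's 75th percentile on each array (P progesterone, C control, with the title number; lines only join the points of a contig) for the kept contigs of FJU.3953 and FJU.1958. C1 of FJU.3953 is bright in both number 8 samples and control 10, and C7 of FJU.1958 in both number 7 samples and control 10, while the other contigs of each cluster do not follow.

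To ask whether the balance of contigs within a cluster differed between numbers, each contig was set against the mean of the other kept contigs of its cluster on the same array. In this difference the fixed binding of a probe cancels between samples. Over the 578 contigs of all 160 clusters with 3 or more kept contigs, limma called 35 (6.06%) at an adjusted p under 0.05. Of the 278 members tested 17 were called (6.12%), in 13 clusters, again near the share of the array. Of the 17, 7 were also among the 10 called as single probes, that is 41.2% of the 17 and 70.0% of the 10. FJU.504.C2, one of the 10, could not recur, as its cluster had fewer than 3 kept contigs and was not tested here. Each difference holds the contig's own signal, so the 2 lists are not independent. At an unadjusted p under 0.05 there were 72 members (25.9%), against 135 of the 578 contigs (23.4%).

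FJU.3953.C1 stood 3.66 above the rest of its cluster in progesterone 8, against -2.21, -2.13 and -1.62 in the other progesterone samples. In controls it stood at 3.76 in number 8 and 2.84 in number 10, against -2.20, -1.82, -4.51 and -1.50 in numbers 2, 4, 5 and 7 (limma adjusted p = 0.00037). FJU.1958.C7 stood 5.47 above the rest in progesterone 7, 2.77 in control 7 and 4.03 in control 10, and below it in the other samples (limma adjusted p = 0.00037). FJU.7.C22, FJU.541.C8 and FJU.695.C4 followed, with adjusted limma p-values of 0.00086, 0.0024 and 0.0038.

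FJU.728.C12, which did not pass as a single probe, lay farthest below the rest of its cluster in number 7, with -6.18 in progesterone 7 and -7.83 in control 7 (limma adjusted p = 0.0068). FJU.1958.C5 and FJU.33.C6 also passed. As each difference holds the other contigs, a strong contig such as FJU.1958.C7 moves the values of its partners too. In 4 of the 13 clusters 2 contigs passed, and in 9 clusters 1 did. The count rested on single arrays and on the scaling: it was 4 without control 4, 6 without progesterone 4, 7 without control 7 and 8 without progesterone 7 or control 5. It was 35 without progesterone 8 and 26 without progesterone 5, and 9 with quantile normalisation, all 9 among the 17. Without control 4, 4 of the 17 contigs were called again.

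The count of 10 single probes moved likewise, to 1 without progesterone 7 or control 7, 2 without control 4, 3 without progesterone 4 and 6 without control 5. FJU.3953.C1 passed in both tests under each of the settings run. What a title number stands for is not stated in the labels. Both samples of number 7 shared a slide, as did both of number 8, while those of numbers 4 and 5 lay on different slides, and the part of the slide in these counts was not tested. A difference between numbers and a difference between whatever batches the numbers mark therefore cannot be told apart.

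The comparison of the study's design, progesterone against control, asked whether the hormone changed any contig, any cluster as a whole, or the balance within a cluster. No member passed any of the 3 tests. For single probes, limma called 0 of 288 members and 0 of 14096 probes (0.0%) at an adjusted p under 0.05. At an unadjusted p under 0.05 it gave 3 members (1.04%), against 172 probes (1.22%) of the array. The log2 differences of the members ran from -1.83 to 1.17, 135 above and 153 below 0, with a median of -0.018 against 0.039 for all kept probes.

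In 52 of the 65 clusters kept contigs lay on both sides of 0. Scatter about 0 with no difference would also give this in most clusters, so the count does not show opposite responses. The values of the 2 groups overlapped for every kept member. Over all kept probes they did not overlap for only 34 (0.241%), so the members are not set apart from the array by this. For 146 members (50.7%) the 95% interval lay wholly within 2-fold of equality, and for 260 (90.3%) within 4-fold. The median standard error was 0.35. These intervals, like those given below, come from the fit without the number as a block. What same-numbered samples share therefore stays in their error. For the other members the interval still held a 2-fold difference in at least one direction.

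Among single members, FJU.1300.C1 had the smallest p of those with a higher mean. It had -6.27, -5.80, -5.87 and -6.66 with progesterone, against -7.65 (lowest), -7.03 (median) and -6.05 (highest) in controls. This made a log2 difference of 0.76 ± 0.32 (SE; limma adjusted p = 0.9997). It was higher with progesterone in 4 of 4 numbers, but well above background on 4 progesterone and only 3 control arrays, so the size of the difference rests partly on values near background. With normexp background correction, an offset of 50 and quantile normalisation (called normexp here) it was 0.11. Under that setting the median absolute difference over all kept probes was also smaller, 0.134 against 0.207.

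In the other direction FJU.487.C7 had -5.69, -5.67, -5.69 and -5.88 with progesterone, against -6.54 (lowest), -3.81 (median) and -2.04 (highest) in controls. This made a log2 difference of -1.83 ± 0.74 (SE; limma adjusted p = 0.9997). The 4 progesterone values lay within 0.21 of each other, while the controls spread over 4.50, and both ends of the whole range were control samples. With the slide as a block the difference was -0.94. Controls 4, 5 and 10 do not enter that difference, as their slides held no progesterone sample.

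For cluster means, limma called 0 of 60 member clusters and 0 of 160 clusters of the array (0.0%), and 1 of each at an unadjusted p under 0.05 (1.67% and 0.625%). That cluster was FJU.2069, with mean signals of -3.66, -3.17, -3.61 and -3.64 with progesterone, against -4.82 (lowest), -3.83 (median) and -3.75 (highest) in controls. All 4 progesterone means lay above all 6 control means, with a log2 difference of 0.56 ± 0.24 (SE; limma adjusted p = 0.9956). The cluster was picked for its smallest p, and how many of the 160 clusters lacked overlap was not counted. With normexp the difference was 0.31. The lowest p in the other direction was that of FJU.146, with -0.30 ± 0.19 (SE; limma adjusted p = 0.9956). The difference of FJU.146 was -0.14 without progesterone 7, -0.13 in the authors' deposited value table and -0.17 with normexp. The interval lay within 2-fold of equality for 53 of the 60 cluster means.

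**Figure D5:**
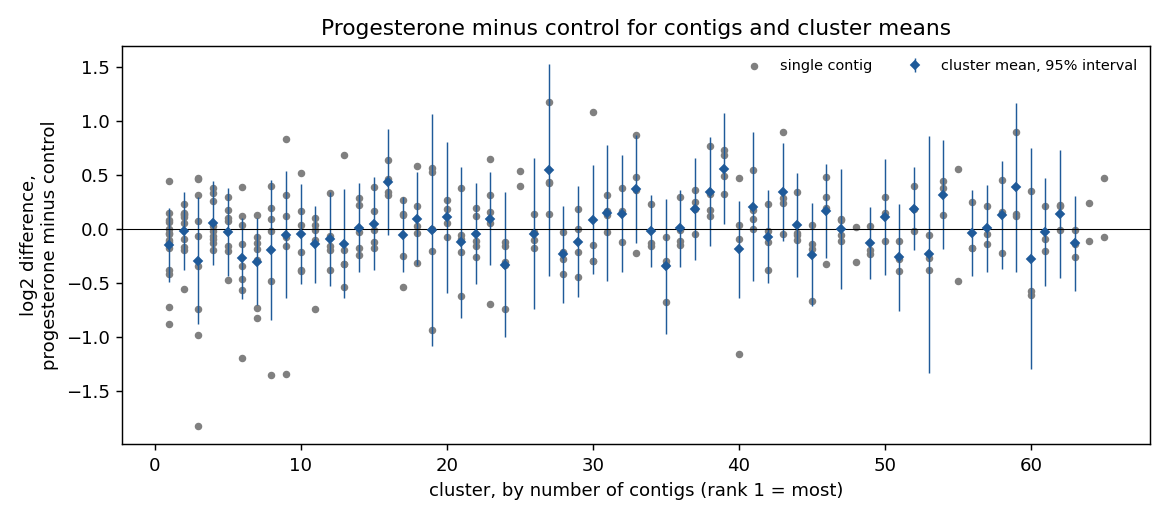
Log2 difference, progesterone minus control, of the 288 kept contigs (grey points) and of the means of the 60 clusters with 3 or more kept contigs (blue diamonds, with 95% intervals from limma), by cluster in the order of the number of contigs. Contigs scatter on both sides of 0 in 52 of the 65 clusters, which scatter with no difference would also give in most. Nearly all intervals of cluster means include 0.

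For contigs set against the rest of their cluster, limma called 0 of 278 members and 0 of 578 contigs (0.0%). At an unadjusted p under 0.05 it gave 5 members (1.80%) and 7 contigs (1.21%). FJU.393.C5 stood at -4.25, -4.62, -4.62 and -4.44 relative to the rest with progesterone, against -6.31 (lowest), -5.74 (median) and -3.92 (highest) in controls. The log2 difference was 1.03 ± 0.42 (SE; limma adjusted p = 0.9937). It was 0.57 with normexp and 0.66 with the slide as a block. FJU.2429.C1 had a log2 difference of -1.30 ± 0.49 (SE; limma adjusted p = 0.9937) and was lower with progesterone in 4 of 4 numbers. Its probe was well above background on only 1 of 4 progesterone and 4 of 6 control arrays, so the size is uncertain, and with normexp it was -0.28. The interval lay within a 2-fold shift of balance for 106 of the 278 members.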

How the data were processed

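RNA of 10 testis explant samples was measured on 1-colour Agilent arrays of 15744 spots, of which 536 were controls. The deposited intensity of each spot came, per the file headers, from Feature Extraction 10.7.1.1, with no scaling between arrays. The deposited value table gives log2 signals of the same arrays; no source used here gives the authors' scaling.

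Here log2 of the processed intensity minus each array's 75th percentile was used, with probes well above background on at least 4 arrays (the smaller group). Tests were two-sided limma fits (version 3.58.1, R 4.3.3, lmFit and then eBayes), Benjamini-Hochberg adjusted over everything fitted, at 0.05. Each fit was run on simulated data with independent noise and large added shifts. That run checks the code and does not measure the power to find small differences in these samples. Correlations used numpy 2.4.6 and scipy 1.17.1. The number of arrays limits the precision.

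Same-numbered samples deviated together (correlations 0.312 to 0.574, from the data, as the labels do not explain the numbers). The fit with the number as a block changed no call.

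Contigs were named by rank in the rule, by highest and lowest median correlation and by smallest p. Members, lists and tests were chosen with earlier results of these data known; the permutation test of pairs, and the further pairs, clusters and contigs named, were added after values were seen. Alternatives were another scaling, normexp (offset 50, then quantile normalisation), the value table, other filters, blocks and single arrays left out. The files hold no probe sequences, so none are shown.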

Additional observations from a re-analysis of the deposited data

Results flagged for a closer look

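Within groups of 4 or 6 samples, 52 sets of values of the contigs and clusters named by rule were searched for a lone sample at a distance from its group, and 7 stood out, where chance gives about 1 in 20. All 7 were progesterone samples, and the contigs of the number tests were picked for differing between numbers, so a lone number stands apart there by choice. FJU.3953.C1 was at -0.089 in progesterone 8, and at 3.66 relative to the rest of its cluster. FJU.695.C4 was at -6.33 in progesterone 4, and at -3.13 relative to the rest of its cluster. FJU.487.C7 was at -5.88 in progesterone 8, a gap of 0.866 of a narrow range. The mean of FJU.2069 was at -3.17 in progesterone 5, and that of FJU.146 at 1.68 in progesterone 7.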

How the results depend on the processing

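The count of members with an adjusted limma p under 0.05 for progesterone against control was 0 for single probes, cluster means and contigs against the rest of their cluster under every alternative run, the number as a replicate block and slide as a block included. Each of the 6 contigs and clusters named there kept its sign, but sizes moved by over 1.5 times: with normexp to 0.11 (FJU.1300.C1, from 0.76), 0.31 (FJU.2069, from 0.56), -0.17 (FJU.146, from -0.30), 0.57 (FJU.393.C5, from 1.03) and -0.28 (FJU.2429.C1, from -1.30), with the slide block to -0.94 (FJU.487.C7, from -1.83) and 0.66 (FJU.393.C5), and for FJU.146 to -0.13 in the authors' value table and -0.14 without progesterone 7. The count of single probes differing between numbers (10) was 6 among probes above background on all arrays, and 1 to 12 without single arrays. The count against the rest of the cluster (17) was 9 with quantile normalisation, 8 with normexp and 8 in the authors' value table, and 4 to 35 without single arrays. The excess of the median correlation within over that between clusters (0.0757) stayed above 0 throughout. It was 0.0441 with values centred on the number (replicate block, 8 arrays), 0.0485 with Spearman's rho, 0.0599 without the first 2 principal components, 0.0916 with quantile normalisation, 0.0960 centred on slides, and 0.0615 to 0.1055 without single arrays. The share of signal variance between clusters (15.4%) was 18.9% without the filter, 9.66% among probes above background on all arrays, and 15.0% to 15.7% without single arrays. The count of member pairs past the permutation threshold (20), whose alternatives were chosen after seeing the data, was 8 with Spearman's rho, 12 with quantile normalisation, 11 with normexp, 14 in the authors' value table and 10 to 24 without single arrays. The cause of these changes was not tested. Normexp used the median spot signal, an offset of 50 and quantile normalisation, and differences over all kept probes were smaller under it. Contigs near background have the least certain values.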
